A study of Homo sapiens with 16 samples.

Results

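Knockdown of PANAD was compared between 2 human liver cancer cell lines by asking, gene by gene, whether cytoplasmic RNA changed by the same amount in both. The quantity described is the line difference: the log2 effect of siPANAD in SNU-449 cytoplasm minus the log2 effect in HepG2 cytoplasm. It was computed for every gene from the 8 cytoplasmic libraries of the 16 in the study, and 16449 of 67938 listed gene identifiers had enough reads to be tested. A positive line difference means that the effect in SNU-449 lay above the effect in HepG2, and a negative one that it lay below.

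The 4 groups used were HepG2 cytoplasm with a negative control siRNA (NC), HepG2 cytoplasm with siPANAD, SNU-449 cytoplasm with NC and SNU-449 cytoplasm with siPANAD, each with 2 libraries described as biological duplicates. Cells of both arms were transfected for 48 h, and siPANAD pooled the siRNAs siPANAD-1 and siPANAD-2, so effects of the individual siRNAs cannot be told apart. HepG2 is a hepatoblastoma-derived line that keeps many hepatocyte traits, and SNU-449 is a hepatocellular carcinoma line with mesenchymal traits. Each line stands for 1 tumour, so a difference between them is a difference between these lines.

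PANAD is the protein of C7orf25, and the study's title connects it with NXF1, with the cytoplasmic delivery of CDK6 mRNA and with entry into S phase. NXF1 is the main receptor that carries spliced mRNA through the nuclear pore, after adaptor proteins of the TREX complex have loaded it onto the transcript. CDK6 is a cyclin D-dependent kinase that phosphorylates the retinoblastoma protein in G1. Cytoplasmic RNA of a gene depends on its transcription, processing, export and decay, and these steps cannot be told apart in a cytoplasmic count.

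Some markers separated the labelled lines and others did not. ALB, the serum albumin gene, was read at 7170 to 8700 CPM (depth-scaled counts) in HepG2 and at 0 in all 4 SNU-449 libraries, while VIM, a mesenchymal intermediate filament gene, was read at 1080 to 1750 CPM in SNU-449 and at no more than 0.0592 CPM in HepG2. FN1, which was among the mesenchymal markers, went the other way, with 1110 to 2920 CPM in HepG2 and 4.85 to 9.81 CPM in SNU-449. ZEB1 (8.41 and 10.2 CPM in HepG2 NC, 11.4 and 8.05 in SNU-449 NC) and S100A4 overlapped in the NC libraries. SPARC (97.8 and 82.8, 124 and 139) and the hepatocyte gene FGB (66.9 and 57.8, 50.8 and 39.6) differed little. The mesenchymal markers summed to 3090 and 2722 CPM in HepG2 NC and 1947 and 1829 CPM in SNU-449 NC. AFP, APOA1, APOB, TTR, SERPINA1, HNF4A, COL1A1, AXL and CAV1 followed the labels. Total counts ran from 16901400 to 19498081, with 30321908 in HepG2 NC replicate 2, and the 2 HepG2 NC libraries differed more from each other (chi-square per degree of freedom 29.9) than the pairs of the other groups (4.97 to 5.42). C7orf25 itself had 0 to 3 counts per cytoplasmic library (0 and 1 in HepG2 NC, 3 and 2 in SNU-449 NC, 0 in all 4 siPANAD libraries), so the knockdown could not be checked at this depth.

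Two-sided tests with edgeR called a line difference (adjusted p under 0.05) for 3603 genes, 21.9% of those tested. SNU-449 lay above HepG2 for 2042 of them (12.4% of genes tested) and below for 1561 (9.49%). This balance turned round with RLE scaling (1752 above and 1817 below) and with DESeq2 (1368 and 1470). A gene that 1 line hardly expresses in either group cannot show an effect there. Genes were therefore sorted into response classes only at a mean level of at least 1 CPM in each line after TMM scaling. The mean covered the NC and siPANAD libraries of a line together, so a gene could pass through 1 of these groups alone. In all, 11185 genes passed, of which 3249 (29%) were called, 1893 with SNU-449 above HepG2 (16.9%) and 1356 below (12.1%). The other 354 called genes fell below that level in a line. Over the 11185 genes the median effect was -0.08 in HepG2 and 0.02 in SNU-449, with a median line difference of 0.08. Values at the threshold were a line difference of 0.57 for NDEL1 and -0.46 for CIAO2B just inside it, and of -1.16 for CEP162 and -0.67 for SCLY just outside.

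Opposite responses were the least common of the classes in which an effect was called. 374 genes (3.34% of the 11185) were called in both lines with opposite signs, 204 lower in HepG2 and higher in SNU-449, and 170 the other way round. The balance of these kinds moved with the scaling, to 144 and 197 with RLE factors and 170 and 190 with TMM within each line. DESeq2, which differs in its test as well, gave 98 and 161. It also moved with the filter, to 164 and 209 at a minimum count of 50 and 158 and 159 with no filter. With all 16 libraries in the fit the counts were 160 and 204. The replicate block (164 and 138) and level minimums of 5 CPM (171 and 137) or none (218 and 198) kept the first kind larger. A further 1534 (13.7%) were called in HepG2 alone, 577 upward and 957 downward, and 605 (5.41%) in SNU-449 alone, 324 upward and 281 downward. 684 genes (6.12%) moved in the same direction by unequal amounts, 530 of them more in HepG2 and 154 more in SNU-449. In 52 genes neither effect was called.

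These classes require the difference itself to pass the test. Of 3085 genes called in HepG2 and not in SNU-449, the line difference was not called for 1551, and of 1467 called in SNU-449 and not in HepG2, it was not called for 862. Another 3030 genes were called with the same sign in both lines. So a gene past the threshold in 1 line was often not shown to differ between the lines. Opposite effects were mostly moderate: their median size was 0.57 in HepG2 and 0.52 in SNU-449 on the log2 scale, 132 of the 374 reached 0.5 in both lines and 9 reached 1 in both. In 371 of the 374 the siPANAD libraries did not overlap the NC libraries in either line, against 60.6% of the 11185 genes (78.3% in HepG2 and 75.2% in SNU-449 taken singly); the call chose the 374 for this. Leaving out 1 library changed the number of opposite genes to 212 and 226 (HepG2 siPANAD replicate 1 or 2), 185 and 245 (SNU-449 siPANAD replicate 2 or 1), and 238 and 224 (SNU-449 NC replicate 1 or 2). The 204 became 308 without HepG2 NC replicate 1. Genes called in SNU-449 alone were 334 without SNU-449 NC replicate 2 and 322 without SNU-449 siPANAD replicate 2. Genes moving the same way by unequal amounts were 1065 without HepG2 NC replicate 1 and 324 to 410 without any 1 of the siPANAD or SNU-449 NC libraries, and all called line differences were 2344 without HepG2 siPANAD replicate 1.

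**Figure D1:**
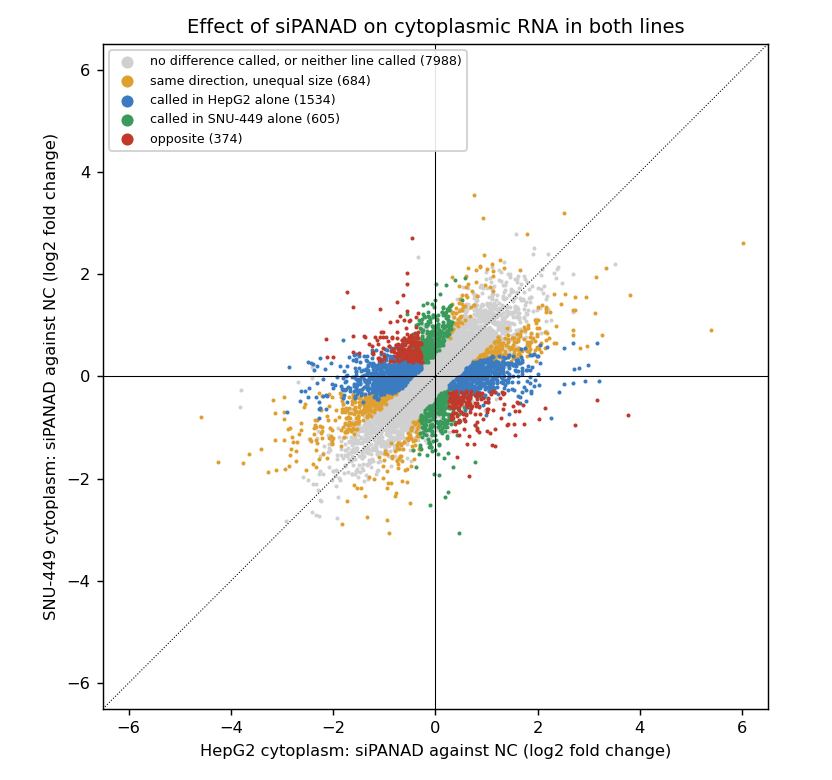
Log2 effect of siPANAD on cytoplasmic RNA in HepG2 (x axis) against SNU-449 (y axis) for the 11185 genes measured in both lines, coloured by response class with the number of genes in each. Genes on the dotted line responded equally; the 374 genes called in opposite directions lie at the upper left (204) and lower right (170).

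Genes that fell in HepG2 and rose in SNU-449 included SLC16A3, EDN1 and DCBLD2. SLC16A3 encodes the monocarboxylate transporter MCT4, which exports lactate from glycolytic cells. Its level was 954 and 969 CPM in the HepG2 NC libraries and 532 and 506 with siPANAD, and 20.6 and 19.2 CPM in the SNU-449 NC libraries and 43.2 and 40.4 with siPANAD. It fell by 0.89 (SE 0.10) in HepG2 and rose by 1.07 (SE 0.12) in SNU-449 on the log2 scale, with no overlap of siPANAD and NC libraries in either line (line difference 1.96, adjusted p = 2e-08). The lines also started far apart, since the HepG2 controls held much more of this mRNA.

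EDN1, which encodes the vasoconstrictor peptide endothelin-1, had similar control levels in both lines, 32 and 25.3 CPM in HepG2 and 26.4 and 28.3 CPM in SNU-449. With siPANAD it was at 5.55 and 7.43 CPM in HepG2 and 45.8 and 44.8 CPM in SNU-449. The effects were -2.13 (SE 0.16) and 0.73 (SE 0.14), a line difference of 2.86 (adjusted p = 1e-08). Control levels that overlapped became well separated, with every siPANAD library of SNU-449 above every siPANAD library of HepG2.

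DCBLD2, a neuropilin-like transmembrane receptor, was at 127 and 142 CPM in HepG2 NC and 56.3 and 62.6 CPM in HepG2 siPANAD libraries. In SNU-449 it was at 182 and 159 CPM with NC and 277 and 303 CPM with siPANAD (line difference 1.94, adjusted p = 4.4e-08). The siPANAD libraries were the lowest of the 4 groups in HepG2 and the highest in SNU-449. The other 5 genes of this kind named by the same rule had line differences of 1.36 to 1.93. They were OGA, which encodes the enzyme that removes O-linked N-acetylglucosamine from proteins (-0.75 in HepG2, 0.75 in SNU-449), FBXL14, an F-box protein of an SCF ubiquitin ligase (-1.01 and 0.77), LNPEP, the insulin-regulated aminopeptidase (-0.66 and 0.70), the transporter gene SLC22A18 (-0.93 and 0.69) and the RNA gene MMP24OS (-1.06 and 0.87).

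The 8 genes named for a rise in HepG2 and a fall in SNU-449 included LAMA3 and JUP, which encode proteins of the basement membrane and of cell junctions. LAMA3, the alpha chain of laminin-332 in epithelial basement membranes, had the most negative line difference of the 8 genes named on this side. It was at 2.03 and 1.82 CPM in HepG2 NC and 13.4 and 12.1 CPM in HepG2 siPANAD libraries, and at 10.3 and 9.97 CPM in SNU-449 NC and 6.19 and 4.37 CPM in SNU-449 siPANAD libraries. Its effects of 2.74 (SE 0.21) and -0.94 (SE 0.19) gave a line difference of -3.68 (adjusted p = 1.3e-08). Control levels were higher in SNU-449 and knockdown levels higher in HepG2. LAMA3 reached the 5 CPM needed for naming in HepG2 only through the siPANAD libraries.

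JUP encodes plakoglobin, which links cadherins to the cytoskeleton in adherens junctions and desmosomes. It was at 94.1 and 71.6 CPM in HepG2 NC and rose to 180 and 167 CPM with siPANAD, and went from 72.4 and 63.6 CPM to 33.3 and 30.1 CPM in SNU-449. The effects were nearly equal in size and opposite, 1.07 (SE 0.13) and -1.10 (SE 0.13), and JUP is 1 of the 9 genes with both effects of at least 1. PALM, the membrane-shape protein paralemmin, was at 28 and 23 CPM in HepG2 NC, 71.8 and 62.8 CPM in HepG2 siPANAD, 95.8 and 105 CPM in SNU-449 NC and 53.9 and 50.1 CPM in SNU-449 siPANAD libraries. For PALM the order of the lines was reversed by the knockdown, as SNU-449 was higher with NC and HepG2 higher with siPANAD.

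ACAT2, the cytosolic acetoacetyl-CoA thiolase that makes the first intermediate of sterol synthesis, was at 49.6 and 57.5 CPM in HepG2 NC and 158 and 157 CPM in HepG2 siPANAD libraries. In SNU-449 it was at 70.7 and 70.3 CPM with NC and 46.2 and 41.6 CPM with siPANAD (line difference -2.24, adjusted p = 7e-09). 52.3% of its exonic bases overlap a gene on the other strand, and strand use in the counting is not given in the sources used here, so its reads and those of its neighbour may not be separated. MXD3, a MAX-binding partner that competes with MYC, had a line difference of -1.52. Of its exonic bases 22.5% overlap a gene on the other strand and 18% a gene on the same strand. The Rab regulators RAB40B and RAB3IL1 had line differences of -1.77 and -2.31. The RNA gene TBX2-AS1 had -1.71.

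**Figure D2:**
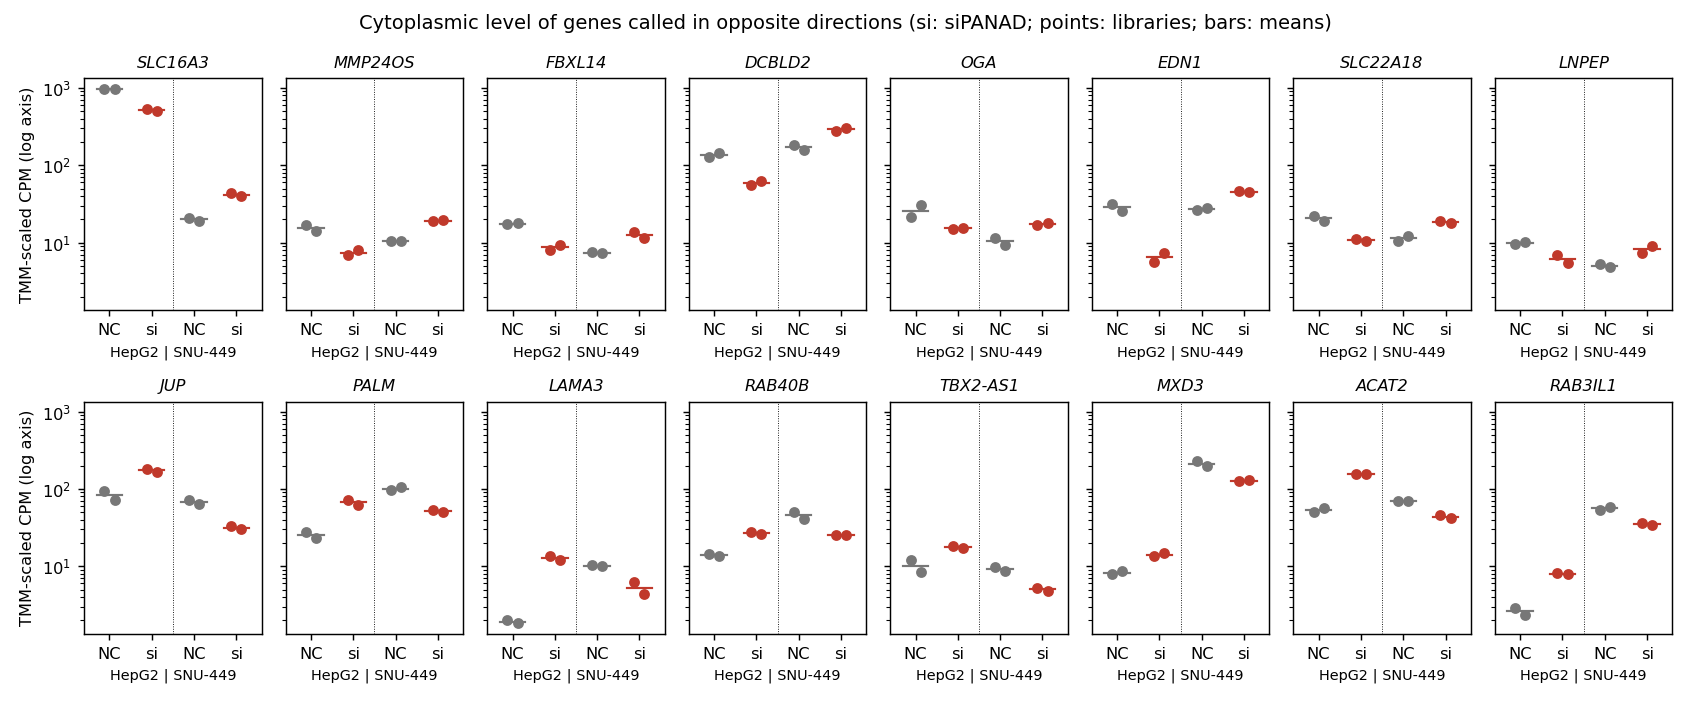
Cytoplasmic level (TMM-scaled CPM, log axis) in each library for the 16 genes named for opposite responses, with NC in grey, siPANAD in red and bars at the mean of 2 libraries. The upper 8 genes fell in HepG2 and rose in SNU-449 and the lower 8 did the reverse; siPANAD and NC points do not overlap in any of the 32 gene and line pairs.

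Genes with a response in HepG2 and a flat SNU-449 effect (within 0.25 of 0) made up 1159 of the 1534 called in HepG2 alone. SIGIRR, a brake on interleukin-1 and Toll-like receptor signalling, was at 2.75 and 2.25 CPM in HepG2 NC and 20.3 and 18.8 CPM with siPANAD, but at 82.9 and 84.8 CPM and 96.6 and 99.4 CPM in SNU-449. EVL, an actin-filament regulator of the Ena/VASP family, went from 1.76 and 1.79 CPM to 12.1 and 11 CPM in HepG2 and was at 28.7 and 30.2 CPM and 27.3 and 26.7 CPM in SNU-449. Both genes were far lower in HepG2 controls than in SNU-449 controls, and the HepG2 siPANAD libraries stayed below every SNU-449 library. Both reached the 5 CPM needed for naming in HepG2 only through the siPANAD libraries. SAT2, a relative of the polyamine acetyltransferase SAT1, rose by 1.95 in HepG2 and had -0.07 in SNU-449, and the oxysterol-binding protein gene OSBP2 rose by 1.92 and had -0.19.

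Downward responses of this kind were found for SOX4, PKD1, NPAS1 and CASC19. SOX4, a transcription factor of progenitor and tumour cells, was at 13.5 and 14.1 CPM in HepG2 NC and 4.16 and 3.18 CPM in HepG2 siPANAD libraries, against 50.7 and 47.6 CPM and 42.4 and 54.6 CPM in SNU-449, where the groups overlapped. PKD1, which encodes the ciliary protein polycystin-1, was at 157 and 135 CPM and 27.7 and 31 CPM in HepG2 and at 22.7 and 26.2 CPM and 26 and 18.7 CPM in SNU-449. PKD1 has near-identical pseudogenes, so its reads could be split among copies. The long non-coding RNA CASC19 had effects of -2.32 and 0.20, and the transcription factor gene NPAS1 of -1.87 and 0.20.

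In SNU-449 alone, 470 of the 605 genes had a HepG2 effect within 0.25 of 0. RHOU, a small GTPase of the cytoskeleton, was at 15.2 and 15.9 CPM in SNU-449 NC and 2.04 and 3.94 CPM in SNU-449 siPANAD libraries, and at 12.1 and 12.8 CPM and 14.3 and 14 CPM in HepG2. NTN4, a netrin of basement membranes, went from 38.3 and 42.2 CPM to 7.94 and 8.9 CPM in SNU-449 and was at 5.77 and 5.37 CPM and 6.39 and 6.72 CPM in HepG2. NT5E, the cell-surface enzyme CD73 that makes adenosine, went from 41.7 and 41.1 CPM to 16.3 and 15.3 CPM in SNU-449 and was at 9.83 and 8.17 CPM and 9.04 and 7.72 CPM in HepG2. All 3 fell in SNU-449 by more than 1 on the log2 scale, as did the dihydropyrimidinase-like gene DPYSL4 (-1.32, against 0.07 in HepG2).

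Upward in SNU-449 alone were LSR, PKD1L2, ETNK1 and SNHG4. LSR, a lipoprotein receptor that also builds tricellular junctions, was at 13.9 and 13.1 CPM in SNU-449 NC and 36.6 and 36.3 CPM in SNU-449 siPANAD libraries, with 171 and 112 CPM and 123 and 127 CPM in HepG2. SNHG4, a host gene of small nucleolar RNA, went from 6.45 and 6.13 CPM to 18.8 and 16.7 CPM in SNU-449 and was at 15.9 and 18.8 CPM and 18.1 and 16.4 CPM in HepG2. PKD1L2 rose by 1.78 and ETNK1, an ethanolamine kinase of phospholipid synthesis, by 1.60, with 0.20 and 0.09 in HepG2.

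Genes that moved the same way in both lines by unequal amounts included PDZK1IP1, ITGA2 and IGFBP1. PDZK1IP1, a small membrane protein of epithelial cells, was nearly absent from the HepG2 controls (0.165 and 0.339 CPM). It was at 11.6 and 12 CPM with siPANAD, while SNU-449 went from 66.8 and 69.4 CPM to 129 and 126 CPM (line difference -4.49). It passed the level minimum in HepG2 only through the siPANAD libraries, and the size of its difference rests on very few control reads. IGFBP1, a liver-secreted binding protein of insulin-like growth factors, fell from 2640 and 2770 CPM to 117 and 166 CPM in HepG2 and from 12.7 and 14.5 CPM to 4.5 and 3.99 CPM in SNU-449 (line difference 2.58). ITGA2, the collagen-binding integrin subunit, fell by 3.18 in HepG2 and by 0.46 in SNU-449, and the SOCS-box gene ASB9 rose by 2.97 and 0.59. Larger in SNU-449 were the falls of C2orf72 (-0.49 in HepG2, -2.47 in SNU-449) and ARSI (-0.95 and -2.80) and the rises of SELENOI (0.59 and 1.96) and ATAD1 (0.47 and 1.76).

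CDK6 fell in both lines and fell more in SNU-449. It was at 86.2 and 91 CPM in HepG2 NC and 27.2 and 26.4 CPM in HepG2 siPANAD libraries, and at 151 and 149 CPM in SNU-449 NC and 29.2 and 26.5 CPM in SNU-449 siPANAD libraries. The siPANAD levels of both lines overlapped, while the controls were higher in SNU-449. The effects were -1.72 (SE 0.11) and -2.43 (SE 0.12), and the line difference of -0.71 (SE 0.16) was called (adjusted p = 0.0026). NXF1 was at 34.8 and 31.3 CPM, 28 and 29.1 CPM, 15 and 15.3 CPM and 15.5 and 16 CPM in the same order, and its line difference was not called (0.27, SE 0.18, adjusted p = 0.34).

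Of the listed regulators of G1 and the G1/S transition, 27 of 32 were measured in both lines, with 4 line differences above 0 and 5 below 0 called (2 and 4 without HepG2 siPANAD replicate 1, SNU-449 NC replicate 2 or SNU-449 siPANAD replicate 2). That is 33.3% of the 27, near the 29% of all genes. CDKN2C, an inhibitor of CDK4 and CDK6, rose in HepG2 (9.17 and 9.68 to 18.3 and 20.1 CPM) and fell in SNU-449 (58.8 and 61.1 to 43.4 and 40.9 CPM), a line difference of -1.53. CCNE1, the cyclin E1 gene that partners CDK2, fell in SNU-449 alone, from 65 and 74.8 to 39.4 and 38.3 CPM, against 98.4 and 104 and 116 and 115 CPM in HepG2 (line difference -1.04). CCND1 (-0.03), CDK4 (0.07), E2F1 (-0.04) and RB1 (-0.05) had line differences that were not called, so for these core genes no difference between the lines was detectable (43.2% of the exonic bases of CDK4 overlap a gene on the other strand). The mitosis list had 54 members measured in both lines with 3 above 0 and 7 below 0 called (1 and 3 without HepG2 siPANAD replicate 1, 9 and 6 without HepG2 NC replicate 1). This share of 18.5% is under that of all genes, and 7 members were called in SNU-449 alone, among them CCNB1 (-0.47, HepG2 0.06), KIF20A (-0.87, HepG2 0.01) and SPC24 (-0.73, HepG2 0.21), while KIF4A rose there (0.66).

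The gene lists that follow are described by counts and medians beside those of all 11185 genes (29% called, median line difference 0.08). Of all these genes 24.9% rose and 33.1% fell in HepG2, and 21.1% rose and 22.4% fell in SNU-449. Opposite directions were called for 3.34% of them, the reference for opposite members of a list. Every list but the blood, immune and endothelial cell markers, of which 2 members were measured in both lines, is plotted with that reference, sorted by the median line difference.

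**Figure D3:**
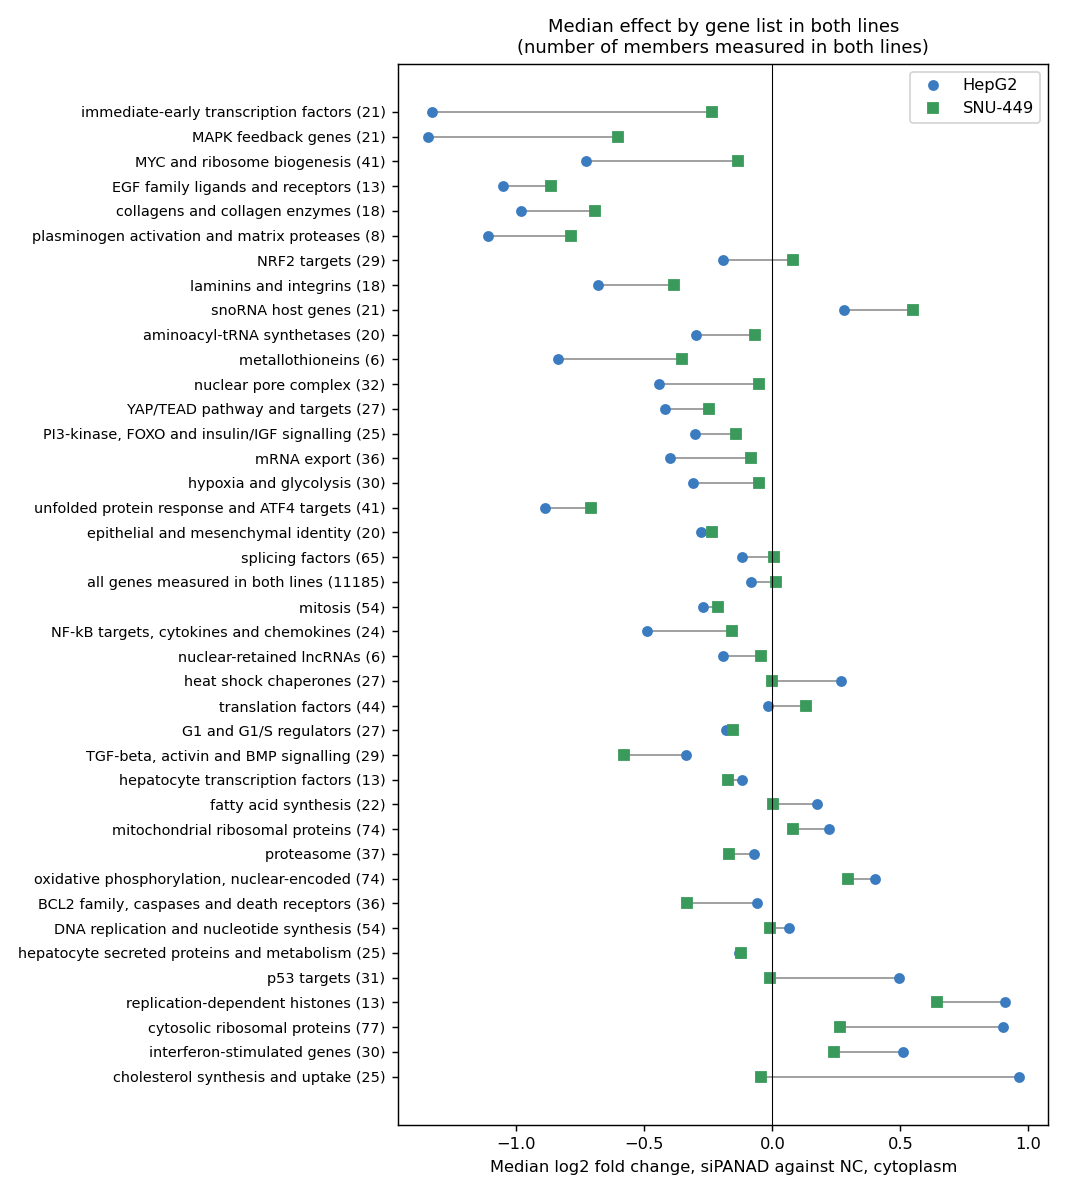
Median log2 effect of siPANAD in HepG2 (circles) and SNU-449 (squares) for each gene list with at least 5 members measured in both lines, with the number of members in brackets and all 11185 genes as a reference. Cholesterol synthesis lies at one end (0.96 in HepG2, -0.04 in SNU-449) and immediate-early transcription factors at the other (-1.33 and -0.23).

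Cholesterol synthesis rose in HepG2 and not in SNU-449. Sterol synthesis runs from acetyl-CoA through mevalonate to squalene and lanosterol, and its genes are switched on together by the transcription factor SREBP2 when the endoplasmic reticulum is short of sterol. Of 26 listed genes 25 were measured in both lines: 22 rose and 2 fell in HepG2, against 2 that rose and 8 that fell in SNU-449. The line difference was called below 0 for 18 and above 0 for 1, 6 genes were opposite, all higher in HepG2, and 10 were called in HepG2 alone. The median effect was 0.96 in HepG2 and -0.04 in SNU-449. The median line difference of -1.21 ranged from -1.28 to -1.11 over the alternative scalings, filters and left-out libraries.

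The called genes spanned the whole path. Early in it, HMGCS1, HMG-CoA synthase, was at 9.99 and 14.4 CPM in HepG2 NC and 31 and 36.2 CPM in HepG2 siPANAD libraries, and at 14.2 and 10.7 CPM and 12.7 and 11.8 CPM in SNU-449. HMGCS1 rose in HepG2 and was flat in SNU-449, where its siPANAD and NC libraries overlapped (effects 1.44 and -0.02, line difference -1.46, adjusted p = 0.00018).

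Further along, MVD, which makes isopentenyl diphosphate, was at 64.6 and 59.6 CPM and 139 and 132 CPM in HepG2 and at 338 and 349 CPM and 282 and 281 CPM in SNU-449. FDFT1, squalene synthase, went from 87.1 and 99.2 CPM to 381 and 348 CPM in HepG2 and from 162 and 151 CPM to 202 and 181 CPM in SNU-449, and so was called upward in both (line difference -1.67). The late enzymes HSD17B7 (-1.98), NSDHL (-1.33), LSS (-1.07) and SQLE (-1.03) also had negative line differences, and of these NSDHL, LSS and SQLE were opposite. The line difference of SC5D (-0.54, adjusted p = 0.11) did not pass. SREBF2, which encodes SREBP2, had -0.22 in HepG2 and 0.01 in SNU-449, and neither effect was called.

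**Figure D4:**
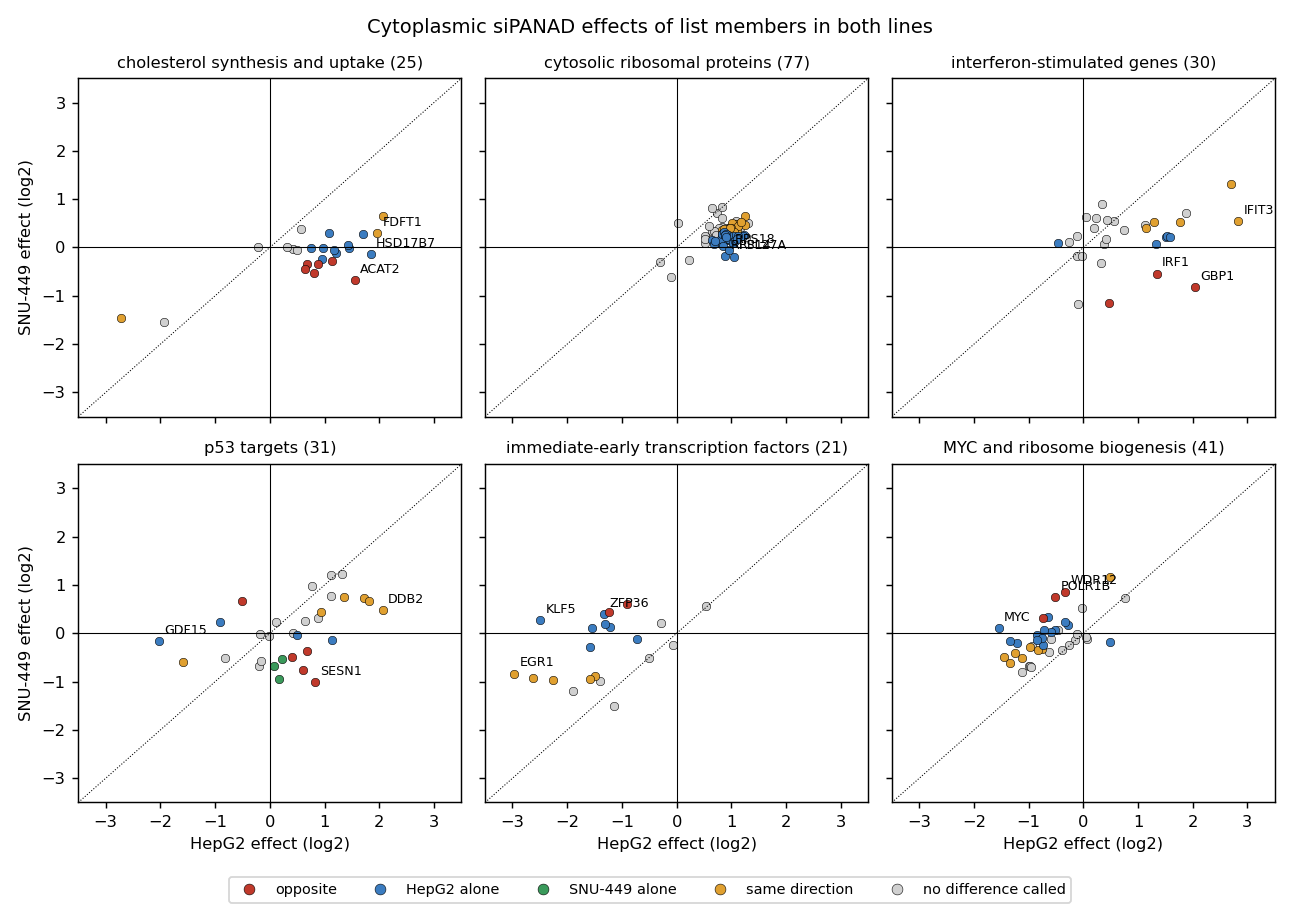
Log2 effect in HepG2 (x axis) against SNU-449 (y axis) of each member measured in both lines of 6 gene lists, coloured by response class, with the 3 largest called line differences labelled. Most cholesterol genes lie right of 0 and near or below 0 on the SNU-449 axis, and most immediate-early and ribosome biogenesis genes lie left of 0 and above the dotted line of equal effects.

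Most genes of the cytosolic ribosome rose in HepG2 and fewer passed the test in SNU-449, and most of their line differences were below 0. Of the 77 of 79 ribosomal protein genes measured in both lines, 68 rose in HepG2 and 26 in SNU-449, and 1 fell in each. Line differences below 0 were called for 49 and above 0 for none, with a median line difference of -0.60, from medians of 0.90 in HepG2 and 0.27 in SNU-449. RPL27A was at 1670 and 1510 CPM in HepG2 NC and 3040 and 3500 CPM in HepG2 siPANAD libraries, and at 559 and 545 CPM and 526 and 444 CPM in SNU-449 (line difference -1.23, adjusted p = 1.8e-05). RPS14 had 0.89 and -0.18, and both genes were called in HepG2 alone. These genes together held 11.7% and 11.8% of the HepG2 NC counts and 20.2% and 20% with siPANAD, against 11.3% and 11.5% and then 14.3% and 14.6% in SNU-449. Ribosomal protein genes have many processed pseudogenes, and how the counting divided such reads is not given in the sources used here. There were 28 to 37 calls without any 1 of the siPANAD or SNU-449 NC libraries, while the median stayed at -0.64 to -0.57.

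Genes that build ribosomes went the other way. Assembly of the ribosome in the nucleolus needs RNA polymerase I, processing factors and small nucleolar ribonucleoproteins, many of them under the control of MYC. Of 42 listed genes 41 were measured in both lines: 32 fell in HepG2 and 13 in SNU-449. Called line differences were above 0 for 24 and below 0 for 1 (POLR1D, -0.67), with a median of 0.56. MYC was at 249 and 190 CPM in HepG2 NC and 74.4 and 76 CPM in HepG2 siPANAD libraries, and at 113 and 134 CPM and 133 and 133 CPM in SNU-449, where the groups overlapped (line difference 1.66, adjusted p = 1.2e-06). DDX21, a nucleolar RNA helicase, fell in HepG2 alone (-1.34, SNU-449 -0.16).

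3 members of this list were opposite. POLR1B, the second largest subunit of RNA polymerase I, was at 42.2 and 46.7 CPM and 29.4 and 32.8 CPM in HepG2 and at 14.1 and 14.1 CPM and 23.2 and 24.5 CPM in SNU-449 (line difference 1.27). WDR12, a processing factor of the large subunit, fell by 0.34 in HepG2 and rose by 0.86 in SNU-449, and WDR43 fell by 0.74 and rose by 0.31. NPM1, the abundant nucleolar phosphoprotein, rose in both (0.76 and 0.73). The number called above 0 was 13 without HepG2 siPANAD replicate 1, 14 without SNU-449 NC replicate 1, 15 without SNU-449 siPANAD replicate 1 and 16 with DESeq2.

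Immediate-early transcription factors fell in HepG2 and far less in SNU-449. These genes are induced within minutes of growth factor or stress signals through the MAPK cascade, and several encode subunits of AP-1. Of 30 listed genes 21 were measured in both lines: 18 fell and 1 rose in HepG2, and 9 fell and 3 rose in SNU-449. The line difference was called above 0 for 14 and below 0 for none, with a median of 1.29 that stayed between 1.15 and 1.29 over the alternatives. KLF5 was at 7.69 and 6.54 CPM in HepG2 NC and 1.33 and 1.18 CPM in HepG2 siPANAD libraries, and at 10.9 and 11.2 CPM and 11.5 and 15.3 CPM in SNU-449 (line difference 2.77, adjusted p = 1.3e-06). EGR1, a zinc-finger factor induced by serum, fell from 41.4 and 47.1 CPM to 5.85 and 5.48 CPM in HepG2 and from 2.92 and 2.99 CPM to 1.4 and 1.89 CPM in SNU-449 (line difference 2.13, adjusted p = 2.4e-05).

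FOSL1 and IER2 were opposite. FOSL1, an AP-1 subunit, was at 44 and 32.4 CPM and 19.1 and 21.6 CPM in HepG2 and at 66 and 76 CPM and 106 and 108 CPM in SNU-449 (line difference 1.5). IER2 was at 32.7 and 43.9 CPM and 18.7 and 14.2 CPM in HepG2 and at 50.2 and 54.5 CPM and 68.2 and 73.2 CPM in SNU-449, and 30.8% of its exonic bases overlap a gene on the other strand. ATF3 (-1.14 and -1.51) and SRF (-0.50 and -0.51) fell in both lines with line differences that were not called.

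Feedback genes of the MAPK cascade, which are induced by the pathway and limit it, moved likewise: of 21 measured in both lines (24 listed), 18 fell in HepG2 and 12 in SNU-449, while the line difference was called above 0 for 11 and below 0 for none (median 0.65). Under RLE scaling it was called below 0 for 2. DUSP6, the phosphatase of ERK, was at 53.3 and 61.4 CPM in HepG2 NC and 11.3 and 12.7 CPM in HepG2 siPANAD libraries, and at 5.79 and 4.64 CPM and 7.47 and 5.99 CPM in SNU-449 (line difference 2.62, adjusted p = 1.1e-07; 40.5% of its exonic bases overlap a gene on the other strand). EPHA2, an ephrin receptor tyrosine kinase, was opposite, with 368 and 300 CPM and 74.3 and 79.2 CPM in HepG2 and 343 and 394 CPM and 494 and 468 CPM in SNU-449 (line difference 2.50). SPRY4, a Sprouty inhibitor of receptor signalling, fell by 2.19 in HepG2 and had -0.38 in SNU-449.

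Upstream of that cascade, 13 of 19 genes of EGF family ligands and receptors were measured in both lines, of which 11 fell in HepG2 and 9 in SNU-449. Of these, 6 had a called line difference above 0 and none below. The ligand gene EREG fell from 62.9 and 54.3 CPM to 7.11 and 8.67 CPM in HepG2 and from 38 and 38 CPM to 17.1 and 20 CPM in SNU-449 (line difference 1.86). The ligand genes AREG (1.83) and HBEGF (1.42) and the sheddase ADAM17 (1.08) also fell in both lines and more in HepG2.

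Many interferon-stimulated genes rose, and most of their called line differences put HepG2 above SNU-449. These genes encode antiviral sensors and effectors and are switched on when interferon regulatory factors or the ISGF3 complex bind the interferon-stimulated response element (ISRE) in their promoters. Of 51 listed genes 30 were measured in both lines, of which 18 rose and 1 fell in HepG2, and 11 rose and 4 fell in SNU-449. The line difference was called below 0 for 13 and above 0 for 1 (LGALS3BP, 0.55, a call lost with RLE scaling and with DESeq2), and the medians were 0.51 in HepG2 and 0.24 in SNU-449. The list's remaining 21 genes were below the level minimum in a line or not tested, so the counts describe the 30 alone.

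The promoters of 4 members with called line differences are shown because the ISRE is the element this family is known by; each is the window from 250 bases before to 50 bases after the gene's start, from RefSeq on GRCh38.p14, 5′ to 3′ on the gene's strand. The letters searched were GAAA, any 2 bases and GAAA again, on both strands (TTTC, any 2 bases and TTTC on the other strand). Capitals mark the matches, and overlapping matches run together.
GBP1: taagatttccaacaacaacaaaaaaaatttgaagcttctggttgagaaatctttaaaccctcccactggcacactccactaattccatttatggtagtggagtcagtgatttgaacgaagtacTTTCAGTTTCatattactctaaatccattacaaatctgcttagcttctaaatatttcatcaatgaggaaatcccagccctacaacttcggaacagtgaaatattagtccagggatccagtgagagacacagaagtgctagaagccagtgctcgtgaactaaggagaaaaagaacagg
IFIT3: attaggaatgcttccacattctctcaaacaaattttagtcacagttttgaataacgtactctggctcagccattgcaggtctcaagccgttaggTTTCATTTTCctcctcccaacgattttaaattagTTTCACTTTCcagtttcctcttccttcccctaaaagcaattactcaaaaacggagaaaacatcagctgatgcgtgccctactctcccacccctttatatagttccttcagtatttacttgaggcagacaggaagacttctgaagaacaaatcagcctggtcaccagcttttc
IFIT1: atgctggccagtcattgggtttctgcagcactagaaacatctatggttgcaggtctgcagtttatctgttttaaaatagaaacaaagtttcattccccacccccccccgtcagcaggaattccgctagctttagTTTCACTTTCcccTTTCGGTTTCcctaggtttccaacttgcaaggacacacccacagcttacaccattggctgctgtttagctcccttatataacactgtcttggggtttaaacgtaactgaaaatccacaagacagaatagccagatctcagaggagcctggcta
IFIH1: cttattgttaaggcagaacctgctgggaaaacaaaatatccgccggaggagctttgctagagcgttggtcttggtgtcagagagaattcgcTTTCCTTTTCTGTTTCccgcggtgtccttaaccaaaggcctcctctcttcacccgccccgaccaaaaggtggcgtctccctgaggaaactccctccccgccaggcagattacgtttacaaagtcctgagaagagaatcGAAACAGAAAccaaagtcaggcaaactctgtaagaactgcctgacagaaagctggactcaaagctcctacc
The windows are chr1:89065159-89065458 (GBP1, minus strand), chr10:89327747-89328046 (IFIT3, plus strand), chr10:89392373-89392672 (IFIT1, plus strand) and chr2:162318635-162318934 (IFIH1, minus strand). The letters matched in 21 of 32 windows of the interferon-stimulated genes (65.6%, 25 of the 30 genes had an entry), against 2.64% of the windows of genes measured in both lines and 3.57% of all windows. A match describes the sequence only.

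Members with a match were found in several classes. GBP1, an interferon-induced GTPase, was opposite: it was at 0.714 and 1.26 CPM in HepG2 NC and 3.86 and 4.77 CPM in HepG2 siPANAD libraries, and at 26.7 and 24.4 CPM and 14.1 and 14.8 CPM in SNU-449 (line difference -2.86, adjusted p = 7.4e-07). It passed the level minimum in HepG2, and so entered this class, only through the siPANAD libraries, and its control reads there were few. IFIT3 rose from 1.92 and 2.78 CPM to 16.5 and 18.2 CPM in HepG2 and from 6.34 and 5.23 CPM to 8.11 and 8.79 CPM in SNU-449, and IFIT1 from 1.21 and 1.23 CPM to 7.29 and 8.61 CPM and from 8.88 and 6.72 CPM to 19.8 and 18.7 CPM, so both of these RNA-binding effectors rose in both lines and more in HepG2. IFIH1, the sensor MDA5, was called in HepG2 alone (1.51, SNU-449 0.22). DTX3L, OAS3 and IFI6, which also hold a match, had line differences of 0.14, 0.38 and 0.59 that were not called.

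IRF1 and USP18, a transcription factor and a protease that respectively drive and damp the response, were opposite too. IRF1 was at 14.7 and 14.6 CPM and 36.1 and 38.1 CPM in HepG2 and at 93.6 and 93.5 CPM and 62.7 and 66 CPM in SNU-449 (line difference -1.88, adjusted p = 5.8e-08; 22% of its exonic bases overlap a gene on the other strand). USP18 went from 9.01 and 9.07 CPM to 13.1 and 11.8 CPM in HepG2 and from 18.2 and 17.9 CPM to 8.41 and 7.93 CPM in SNU-449.

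For the immediate-early genes the matching element is the CArG box bound by SRF. EGR1, a member with a called line difference, is shown with the 2 it holds in its RefSeq window (chr5:138465229-138465528, plus strand, GRCh38.p14), marked by capitals.
EGR1: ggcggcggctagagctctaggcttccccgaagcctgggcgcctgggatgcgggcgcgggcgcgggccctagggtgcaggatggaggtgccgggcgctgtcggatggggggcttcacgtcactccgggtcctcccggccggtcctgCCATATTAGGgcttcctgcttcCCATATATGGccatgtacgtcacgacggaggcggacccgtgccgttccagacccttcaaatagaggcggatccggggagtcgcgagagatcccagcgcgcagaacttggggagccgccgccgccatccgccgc
CArG boxes were found in 2 of 22 windows of this list (9.09%, EGR1 and SRF), against 1.09% of windows of genes measured in both lines. The SRF window also holds 2 boxes, and the line difference of SRF was not called (-0.01). A sterol regulatory element, searched as TCACNCCAC on both strands, was found in 1 of 25 windows of the cholesterol list (4%, SREBF2), against 1.02%.

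Targets of p53 were split. The tumour suppressor p53 induces genes of cell cycle arrest, DNA repair and apoptosis after damage. Of 35 listed targets 31 were measured in both lines: 18 rose and 5 fell in HepG2, while 10 rose and 11 fell in SNU-449. The line difference was called below 0 for 14 and above 0 for 4, and 5 genes were opposite, 4 of them higher in HepG2. Of all genes 3.34% were opposite. DDB2, a sensor of ultraviolet damage, was at 35.6 and 32 CPM in HepG2 NC and 140 and 142 CPM in HepG2 siPANAD libraries, and at 36.9 and 40.5 CPM and 55.4 and 53 CPM in SNU-449 (line difference -1.58, adjusted p = 5.6e-07). CDKN1A, the CDK inhibitor p21, was at 255 and 229 CPM and 353 and 290 CPM in HepG2 and at 150 and 160 CPM and 112 and 109 CPM in SNU-449, so it was opposite (0.41 and -0.48, line difference -0.89).

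SESN1 (0.82 and -1.01), the translesion polymerase gene POLH (0.60 and -0.75) and PHLDA3 (0.68 and -0.36) were also higher in HepG2 and lower in SNU-449. PMAIP1, the BH3-only protein NOXA, went against them, with 6.32 and 6.2 CPM and 3.8 and 5.01 CPM in HepG2 and 12.3 and 12.5 CPM and 19.4 and 20.2 CPM in SNU-449 (line difference 1.18). GDF15, a stress cytokine, fell in HepG2 alone, from 1580 and 1070 CPM to 322 and 329 CPM, against 85.9 and 81.5 CPM and 70.9 and 79.4 CPM in SNU-449. MDM2 (0.42 and 0.00), FAS (0.77 and 0.97) and ZMAT3 (1.12 and 0.76) had line differences that were not called.

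Regulators of apoptosis held 5 opposite genes among the 36 of 39 measured in both lines, where 3.34% of all genes were opposite. Line differences were called above 0 for 8 and below 0 for 11. The latter was 5 without HepG2 siPANAD replicate 1 or SNU-449 siPANAD replicate 1, 7 and 6 without SNU-449 NC replicate 1 or 2, and 7 with the replicate block. BMF, a BH3-only activator of cell death, was at 13.7 and 14 CPM in HepG2 NC and 45.4 and 40.4 CPM in HepG2 siPANAD libraries, and at 143 and 138 CPM and 100 and 95.3 CPM in SNU-449 (line difference -2.15, adjusted p = 1e-08). BIK, another BH3-only protein, rose by 0.85 in HepG2 and fell by 0.59 in SNU-449. MCL1, which protects mitochondria from such proteins, went the other way, from 162 and 195 CPM to 118 and 118 CPM in HepG2 and from 127 and 127 CPM to 191 and 202 CPM in SNU-449 (line difference 1.22, adjusted p = 9.8e-06). BCL2L1, which encodes BCL-XL, fell in both (-1.05 and -0.82) without a called difference, with 43% of its exonic bases overlapping a gene on the other strand.

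Chaperones of the heat shock response included 5 opposite genes among 27 of 31 measured in both lines, where 3.34% of all genes were opposite. Of the 5 genes 4 were higher in HepG2 and lower in SNU-449. The inducible HSP70 genes HSPA1A (12.2 and 10.7 to 20.8 and 19 CPM in HepG2, 78.4 and 79.6 to 58.8 and 63 CPM in SNU-449) and HSPA1B (9.72 and 9.87 to 16.1 and 17.4 CPM and 31.6 and 30.2 to 21.9 and 21.5 CPM) are near-identical copies whose reads may be split. DNAJB1, their co-chaperone, rose by 0.38 in HepG2 and fell by 0.40 in SNU-449, and the polyubiquitin gene UBB rose by 0.78 and fell by 0.36 (28.4% of its exonic bases overlap a gene on the other strand). HSF1, the transcription factor of this response, fell in HepG2 alone (-0.72, SNU-449 0.05). Over the list 9 line differences were called below 0 and 4 above 0.

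Targets of NRF2, the regulator of antioxidant and glutathione genes, fell more in HepG2: of 29 of 31 measured in both lines, 13 fell and 7 rose there, and 2 fell and 9 rose in SNU-449. Calls of the line difference were above 0 for 11 and below 0 for 2, and the latter count was 0 without either HepG2 siPANAD library, either SNU-449 NC library or SNU-449 siPANAD replicate 2, and 4 without HepG2 NC replicate 1. NFE2L2, the NRF2 gene itself, was at 203 and 170 CPM in HepG2 NC and 119 and 117 CPM in HepG2 siPANAD libraries, and at 31.4 and 23.4 CPM and 27.7 and 34.7 CPM in SNU-449, where the groups overlapped (line difference 0.85). TXNRD1, thioredoxin reductase, fell in HepG2 alone (-1.30, SNU-449 -0.11), and GSR, glutathione reductase, was opposite (-0.41 and 0.40).

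The machinery named in the study's title was examined through lists of mRNA export factors and nuclear pore proteins. Of 36 of 42 export genes measured in both lines, the line difference was called above 0 for 12 and below 0 for 4, and 19 fell in HepG2 and 12 in SNU-449. Without SNU-449 NC replicate 1 these calls were 8 and 0, and without HepG2 siPANAD replicate 1 they were 7 and 2. LENG8 was opposite, with 60.7 and 59.8 CPM and 25.7 and 30.7 CPM in HepG2 and 29.2 and 27.9 CPM and 38.2 and 35.4 CPM in SNU-449 (line difference 1.46). The THO complex gene THOC6 was opposite too (-0.43 and 0.31). NHSL1, which is not known as an export factor but was in the list, fell in HepG2 alone (-1.17, SNU-449 -0.08). It counts among the 12 and the 19. DDX39B, the TREX helicase UAP56, fell in HepG2 alone (-1.05, SNU-449 -0.05; 30.8% of its exonic bases are shared with another gene), and NXT2, an NXF1 cofactor paralog, fell in SNU-449 alone (-1.77, HepG2 -0.38). Of the 32 pore genes 20 fell in HepG2 and 8 in SNU-449, with 7 line differences called above 0 (4 without HepG2 siPANAD replicate 2 or SNU-449 siPANAD replicate 2, 11 without either HepG2 NC library) and 1 below, and NUP153, a basket protein, fell in HepG2 alone (-1.01, SNU-449 -0.13). At 25% called, the pore list was near the 29% of all genes.

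Most collagens and collagen enzymes measured fell in both lines, while laminins and integrins were mixed. Of 18 of 36 collagens and collagen enzymes measured in both lines, 15 fell in HepG2 and 14 in SNU-449, with 9 line differences called above 0 and 2 below. The former was 4 without HepG2 siPANAD replicate 1, and 5 without HepG2 siPANAD replicate 2, either SNU-449 NC library or SNU-449 siPANAD replicate 2. LOXL2, a collagen cross-linking oxidase, went from 15.8 and 13.3 CPM to 1.51 and 1.77 CPM in HepG2 and from 843 and 831 CPM to 368 and 335 CPM in SNU-449 (line difference 1.88), although SNU-449 controls held far more of it. P4HA2, a collagen prolyl hydroxylase, fell more in SNU-449 (-0.67 and -1.55). Of 18 laminins and integrins measured in both lines, 11 fell and 4 rose in HepG2, and 8 fell and 2 rose in SNU-449. Their line differences were called above 0 for 7 and below 0 for 2, 1 of these LAMA3. The latter was 1 without HepG2 NC replicate 2, SNU-449 NC replicate 2 or any siPANAD library.

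Hepatocyte genes could be compared only where SNU-449 expressed them: 25 of 62 secreted or metabolic genes and 13 of 25 transcription factors. The secreted and metabolic genes were split, with 5 line differences called above 0 and 9 below, and 4 opposite genes, 2 in each sense. Of all genes 3.34% were opposite, the reference here and for the mitochondrial ribosomal proteins below. AMBP, a plasma protein precursor, rose from 2030 and 1880 CPM to 2700 and 2610 CPM in HepG2 and fell from 33.5 and 33.5 CPM to 17.9 and 18.4 CPM in SNU-449 (line difference -1.33). CYP27A1, a mitochondrial sterol hydroxylase, was opposite in the same sense (0.34 and -0.30), while PCK2, the mitochondrial phosphoenolpyruvate carboxykinase, and the complement gene C5 fell in HepG2 and rose in SNU-449 (-0.40 and 0.34, -0.75 and 1.45). TXNIP, an inhibitor of glucose uptake and thioredoxin from the insulin-signalling list, fell in HepG2 (115 and 132 to 85.5 and 82.7 CPM) and rose in SNU-449 (1.1 and 1.12 to 4.55 and 3.29 CPM; line difference 2.36). IRS1, the insulin receptor substrate, also fell in HepG2 and rose in SNU-449 (-0.65 and 0.63). Mitochondrial ribosomal proteins (74 of 77) held 5 opposite genes, all higher in HepG2 and lower in SNU-449, such as MRPL27 (0.62 and -0.60), with 12 line differences called below 0 (7 without HepG2 siPANAD replicate 1, SNU-449 NC replicate 2 or SNU-449 siPANAD replicate 1, 20 without HepG2 NC replicate 1) and 3 above, 20.3% in all.

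In several other lists a smaller share was called than the 29% of all genes. Nuclear-encoded oxidative phosphorylation genes were called for 14.9% of 74 members, DNA replication and nucleotide synthesis for 16.7% of 54, the proteasome for 18.9% of 37 and splicing factors for 21.5% of 65. These shares were higher without HepG2 NC replicate 1, where the calls above and below 0 were 5 and 16 for oxidative phosphorylation, 6 and 13 for DNA replication, 5 and 9 for the proteasome and 22 and 6 for splicing factors. Without HepG2 siPANAD replicate 1 they were 0 and 5, 0 and 5, 4 and 1, and 4 and 2. Targets of the unfolded protein response and of ATF4 fell in both lines, 33 of 41 in HepG2 and 28 in SNU-449, while the line difference was called above 0 for 14 and below 0 for 3 (median 0.17), 41.5% in all. The calls above 0 were 8 without HepG2 siPANAD replicate 2 or SNU-449 NC replicate 2 and 9 without SNU-449 siPANAD replicate 1, those below 0 were 1 without replicate 1 of siPANAD in either line and 5 without HepG2 NC replicate 2, and the median was -0.05 without HepG2 NC replicate 2. Aminoacyl-tRNA synthetases, which charge tRNAs for translation, were called above 0 for 8 of 20 and below 0 for 1. The former was 5 without HepG2 siPANAD replicate 1, SNU-449 NC replicate 2 or SNU-449 siPANAD replicate 1. VARS1, the valine enzyme, was at 270 and 245 CPM in HepG2 NC and 99.3 and 110 CPM in HepG2 siPANAD libraries, and at 290 and 355 CPM and 332 and 305 CPM in SNU-449 (line difference 1.28).

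The nuclear libraries of the same cells give a readout that took no part in choosing the classes, though they may come from the same cultures. Fitted on their own, they called a line difference for 32.4% of the genes measured in both lines in the cytoplasm, 16.6% above 0 and 15.8% below. Over these 11165 genes the sign was the same in both fractions for 8103, and 29.2% were called in the nucleus with the cytoplasmic sign. Of the 204 genes that fell in HepG2 and rose in SNU-449 in the cytoplasm, the nuclear line difference had the same sign for 201 and was called with that sign for 133 (65.2%) and with the other sign for 0. Of the 170 opposite genes of the reverse kind, 167 had the same sign and 142 (83.5%) were called, again with 0 of the other sign. 51 and 79 of these genes were also opposite in the nucleus in the same way, and 4.39% of all genes were opposite there in either way.

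Genes called in 1 line alone were set beside the nucleus in the same way. Called with the same sign in the nucleus were 335 of 577 that rose in HepG2 alone (58.1%), 548 of 957 that fell in HepG2 alone (57.3%), 175 of 281 that fell in SNU-449 alone (62.3%) and 106 of 324 that rose in SNU-449 alone (32.7%). The difference between these shares was not tested. Called with the other sign were 5, 3, 1 and 0. ETNK1 is an example of the last class without a nuclear counterpart (nuclear line difference -0.30, adjusted p = 0.18), and LSR one with it (1.68, adjusted p = 1.6e-11).

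For single genes, EDN1 had a nuclear line difference of 2.85 (adjusted p = 2.7e-19) beside 2.86 in the cytoplasm, and LAMA3 -2.70 (adjusted p = 3.5e-17) beside -3.68. OGA had 0.27 (adjusted p = 0.22) and LNPEP 0.42 (adjusted p = 0.061), so for these genes the cytoplasmic difference was not matched by a called nuclear one. For CDK6 the nuclear line difference was -0.29 (adjusted p = 0.19), with nuclear effects of -0.51 in HepG2 and -0.80 in SNU-449. Among lists, cholesterol synthesis was called below 0 in the nucleus for 21 of 25 genes and above 0 for 1 (median -1.14), and ribosome biogenesis above 0 for 31 of 41 and below 0 for none (median 0.65). For cytosolic ribosomal proteins, 5 of 77 were called below 0 and 4 above, with a nuclear median of -0.20.

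**Figure D5:**
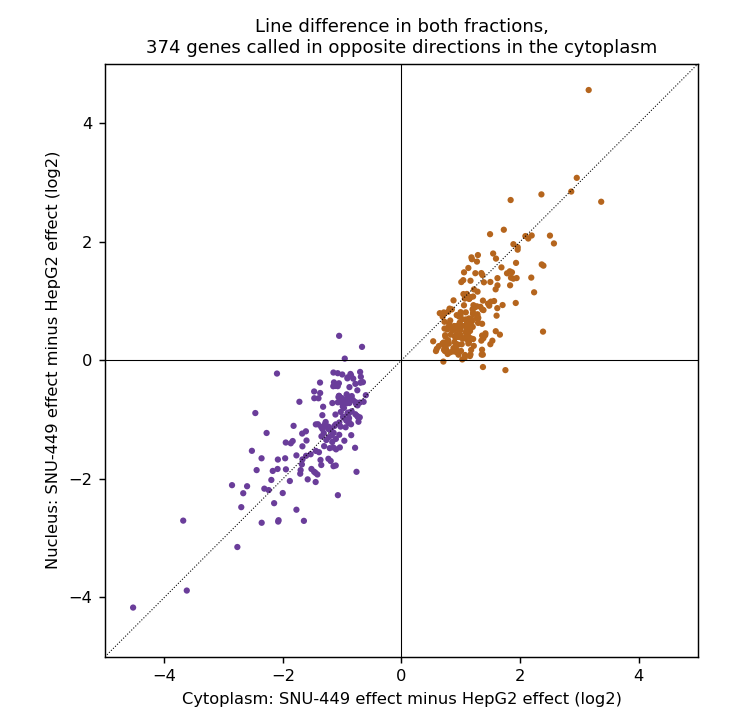
Nuclear line difference (y axis) against cytoplasmic line difference (x axis), both log2 and each from its own fit, for the 374 genes called in opposite directions in the cytoplasm, with genes higher in SNU-449 in brown and genes higher in HepG2 in purple. The sign is the same in both fractions for 201 of 204 and 167 of 170 genes, against 8103 of 11165 genes measured in both lines. The dotted line marks equal values.

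The line difference also moved with exonic length. This length counts all annotated exonic bases of a gene, merged, and is not the length of any single transcript. Over 5 equal bins of genes ordered by exonic length, from a median of 2271 bases to one of 10620, the median line difference ran from -0.09 through 0.02, 0.10 and 0.16 to 0.24, and the share called above 0 from 11.5% to 23.9%. The median HepG2 effect ran from 0.11 to -0.24 over the bins, and the median SNU-449 effect stayed between -0.03 and 0.02. Across 10231 genes, which are not independent replicates, Pearson's r between log length and the line difference was 0.18. Ribosomal protein mRNAs are short and many matrix mRNAs long; the part of length in the list differences was not tested. The median level per class was 21.9 to 39 CPM in HepG2 and 18.4 to 47.6 CPM in SNU-449, against 23.5 and 21 for all 11185 genes.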

How the data were processed

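Cytoplasmic and nuclear RNA of HepG2 and SNU-449 cells was sequenced in biological duplicates. The deposited files hold raw read counts per gene and library, 1 table for each line. Reads had been trimmed with Trim Galore 0.6.4 and aligned with HISAT2 2.2.1 to hg38, per the submitters' processing notes. The counting program, annotation and strand setting are not given in the sources used here. Both tables were joined on the gene identifier; 1 entry broken over several lines was left out, and 61444 identifiers matched a symbol (those without one held 0.02915% of counts).

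The 8 cytoplasmic libraries were fitted with edgeR 4.0.16 (R 4.3.3): filterByExpr with a minimum count of 10, TMM scaling, 1 mean per group, and the robust quasi-likelihood test with 4 residual degrees of freedom, two-sided. p-values were adjusted by Benjamini-Hochberg over all 16449 genes tested and called under 0.05. On simulated counts for this contrast (16110 genes), 61.6% of 99 changed genes with a log2 size of 1 were recovered. For a size of 2 it was 82.2% of 101. The changed genes had a mean of at least 1 CPM, and all genes were drawn with 1 common spread. Far fewer genes were changed than were called in the data, so these rates may not carry over. The 8 nuclear libraries had their own fit. p-values measure the spread between duplicate libraries only. CPM values are TMM-scaled, except those of the line markers and their sums, which are scaled to total counts. Standard errors come from the same fit and, like the p-values, cover the duplicate libraries only.

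The lines compared, the members and all 40 gene lists were chosen with earlier results of these data known. Named genes were CDK6, NXF1 and C7orf25. The level minimum in the rule below is a mean over the NC and siPANAD libraries of a line. In addition, among genes with at least 5 CPM in each line whose libraries did not overlap where an effect was called, they were the 8 opposite genes per direction with the largest smaller effect, the 4 per line and direction called in 1 line alone with the other within 0.25 of 0, the 2 per kind with unequal effects in the same direction, and in each list the 2 largest called differences and up to 4 opposite members. Other list members were picked for their known role after their values were seen. Some genes picked by the rule reached 5 CPM in a line through 1 of its groups alone. Among them were LAMA3, RAB3IL1, EVL, SIGIRR, ASB9, PDZK1IP1 and IFIT3 (HepG2 siPANAD), SELENOI (SNU-449 siPANAD), SOX4 and NPAS1 (HepG2 NC) and RHOU (SNU-449 NC). Alternatives were RLE scaling, TMM within each line, DESeq2 1.42.0, other count filters, all 16 libraries in the fit, a replicate block, a threshold of 0.01, other level minimums, and each library left out. Some members of the lists are not reported here by name.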

Additional observations from a re-analysis of the deposited data

Results flagged for a closer look

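Each gene named here differed between the lines under the same knockdown, tested as the difference itself. The number of genes called in opposite directions was 204 for those lower in HepG2 and higher in SNU-449, and 170 for the reverse. These counts were not tested against each other, and their balance turned round under several alternatives. CDK6 fell in both lines, with a line difference of -0.71.

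Among genes lower in HepG2 and higher in SNU-449, the line differences were 1.96 for SLC16A3, 1.93 for MMP24OS, 1.78 for FBXL14, 1.94 for DCBLD2, 1.5 for OGA, 2.86 for EDN1, 1.62 for SLC22A18 and 1.36 for LNPEP. Among genes higher in HepG2 and lower in SNU-449, they were -2.17 for JUP, -2.36 for PALM, -3.68 for LAMA3, -1.77 for RAB40B, -1.71 for TBX2-AS1, -1.52 for MXD3, -2.24 for ACAT2 and -2.31 for RAB3IL1.

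Genes called in HepG2 alone had line differences of -2.82 for EVL, -2.77 for SIGIRR, -2.11 for OSBP2 and -2.02 for SAT2, and of 2.52 for CASC19, 2.18 for PKD1, 2.06 for NPAS1 and 1.9 for SOX4. Genes called in SNU-449 alone had 1.6 for LSR, 1.58 for PKD1L2, 1.51 for ETNK1 and 1.51 for SNHG4, and -2.54 for RHOU, -2.5 for NTN4, -1.39 for DPYSL4 and -1.3 for NT5E. Genes that moved the same way by unequal amounts had -4.49 for PDZK1IP1 (nearly absent from the HepG2 controls), -2.38 for ASB9, 1.37 for SELENOI and 1.29 for ATAD1. The others of this kind had 2.72 for ITGA2, 2.58 for IGFBP1, -1.98 for C2orf72 and -1.85 for ARSI. These genes were picked for the size of their differences, so the sizes describe them and are not a second test.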

How the results depend on the processing

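For CDK6, NXF1 and the genes picked by the naming rule, 2286 pairs of gene and alternative kept direction and call, and 18 kept the direction and lost the call. Other list members named in the text, such as KLF5, EGR1, HMGCS1, GBP1 and LGALS3BP, were not among these pairs. No direction was reversed in these pairs. These pairs concern the line difference alone, and whether a named gene kept its response class was not compared. Of the 374 opposite genes 83.2% stayed opposite with RLE scaling and 65.8% with DESeq2. Under a threshold of 0.01 the called line differences were 2089 (1180 above and 909 below), with 141 opposite genes (66 lower and 75 higher in HepG2), 362 in SNU-449 alone and 268 in the same direction. DESeq2 gave 98 opposite genes lower in HepG2. Without 1 library at a time, called line differences ranged from 2344 to 4652 (above 1315 to 2673, below 1029 to 1979) and opposite genes from 185 to 532 (95 to 308 and 90 to 224). Genes in HepG2 alone ranged from 1049 to 1712, in SNU-449 alone from 322 to 874 and in the same direction from 324 to 1065. The lowest values came without HepG2 siPANAD replicate 1 or SNU-449 siPANAD replicate 2 and the highest without HepG2 NC replicate 1; the cause was not tested. RLE factors moved the median line difference from 0.08 to 0.02, and of 341 opposite genes called with them 311 were among the 374. A level minimum of 5 CPM left 8442 genes measured in both lines and no minimum 16449.

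Equal replicate numbers did not pair the libraries: deviations from the group means correlated at 0.007 in HepG2 and -0.124 in SNU-449. With the replicate block within each line 3267 line differences were called, 3214 of them among the 3603, and 302 opposite genes. With 2 libraries a group, depth limits rare transcripts such as C7orf25, and small differences could not be detected.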
